A study of Mus musculus with 6 samples.

Results

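The genes described here encode the proteasome, the protease that degrades ubiquitin-tagged proteins in the cytosol and nucleus. Members are the genes whose symbol in the platform annotation begins with Psma, Psmb, Psmc, Psmd, Psme, Psmf or Psmg followed by a digit, read from probe sets that name a single gene. The rule found 48 genes on 85 probe sets, out of 12393 genes on the array with such a probe set, and each gene was read from its brightest tested probe set. Core subunits (Psma and Psmb, 18 genes) and cap genes (Psmc and Psmd, 20 genes, of which Psmd5, Psmd9 and Psmd10 encode assembly chaperones) were treated apart. The remainder were 4 Psmg assembly chaperones, 4 activator and inhibitor genes (Psme1, Psme3, Psme4 and Psmf1), and 2 genes that match by symbol but encode interacting proteins, Psmc3ip and Psme3ip1. Psme2 was not a member, because its probe set also names Psme2b.

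Whole pituitaries of male C57BL/6J mice, wild type or Bmal1-/-, were profiled at 8 to 12 weeks of age. BMAL1, with its partner CLOCK or NPAS2, switches on the genes of the circadian clock, and all animals were killed at zeitgeber time 12, when lights go off. Each of the 3 arrays per genotype (wild-type replicates 1 to 3, Bmal1-/- replicates 4 to 6) carried RNA pooled from 3 glands. The design asks how loss of BMAL1 alters the pituitary transcriptome at that hour. The labels say neither how the Bmal1-/- allele was made nor whether the deletion is limited to a cell type. In whole glands, fewer cells of a type and less RNA per cell cannot be told apart.

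The arrays correlated closely, with Pearson's r across tested probe sets of 0.980 to 0.986 within and 0.970 to 0.976 between genotypes. Median intensity differed by genotype, at 33.5 to 34.3 on wild-type arrays and 31.7 to 32.2 on those labelled Bmal1-/-. The pituitary hormone gene Gh, a defining marker of the gland, read 19355 ± 1119 (SD, n = 3) in the wild-type group against 16017 ± 662 in the other. The targeted gene Arntl read higher on the arrays labelled Bmal1-/-, at 114 ± 12.8 against 43.3 ± 7.29 in wild type (log2 fold change 1.13, limma adjusted p = 0.000653). The sources used here do not place its probe set relative to the deleted part, so directions below refer to the arrays labelled Bmal1-/-. The BMAL1 target Dbp read 440 ± 59.1 in wild type and 68.6 ± 11.1 on those arrays.

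The proteasome has a barrel-shaped core with outer rings of alpha subunits, which gate the entrance, and inner rings of beta subunits, of which Psmb5, Psmb6 and Psmb7 carry the proteolytic sites. A cap on the barrel's end binds ubiquitin chains, unfolds the substrate with a ring of ATPases and removes ubiquitin through its lid. In cells exposed to interferon, and constitutively in many immune cells, Psmb8, Psmb9 and Psmb10 replace Psmb5, Psmb6 and Psmb7 in newly built cores, which then cut proteins into peptides suited to MHC class I molecules. The transcription factor NRF1 (Nfe2l1) raises proteasome genes together through antioxidant response elements when proteasome activity falls.

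Sequence upstream of the start site is shown for a constitutive and immunoproteasome pair of catalytic subunits each, because the pairs' signals lay on opposite sides of 0 here, and for the members with an E-box, the element that BMAL1 binds. The 250 bases before the annotated start were searched on both strands in RefSeq's GRCm38.p6 promoters, where 40 of the 48 members had an entry. Psma8, Psmb1, Psmb2, Psmb7, Psmc3, Psmd3, Psmd7 and Psmg2 were the 8 others. Motifs were the E-box CACGTG, the antioxidant response element core TGACNNNGC, the CCAAT box CCAAT and the interferon-stimulated response element, searched in its spaced GAAA repeat form. None of the matches in the printed sequences overlap. Capitals mark a match to any of them, and a run with no capitals has none.
Psmb5 (chr14:54617996-54618245, minus strand): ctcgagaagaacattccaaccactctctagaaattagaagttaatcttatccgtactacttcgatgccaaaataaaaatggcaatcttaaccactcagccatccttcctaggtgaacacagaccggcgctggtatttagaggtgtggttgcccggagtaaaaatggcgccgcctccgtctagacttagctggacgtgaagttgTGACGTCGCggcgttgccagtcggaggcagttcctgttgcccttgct
Psmb8 (chr17:34197945-34198194, plus strand): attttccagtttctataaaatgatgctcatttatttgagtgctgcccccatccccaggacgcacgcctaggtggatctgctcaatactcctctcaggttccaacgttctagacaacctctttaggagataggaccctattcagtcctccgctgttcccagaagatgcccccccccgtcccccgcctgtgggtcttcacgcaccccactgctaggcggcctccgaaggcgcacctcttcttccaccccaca
Psmb6 (chr11:70525107-70525356, plus strand): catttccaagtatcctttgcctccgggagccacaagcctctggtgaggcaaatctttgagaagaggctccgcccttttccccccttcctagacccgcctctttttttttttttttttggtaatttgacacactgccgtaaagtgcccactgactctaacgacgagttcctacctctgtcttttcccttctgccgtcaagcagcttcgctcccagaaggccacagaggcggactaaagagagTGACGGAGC
Psmb9 (chr17:34187331-34187580, minus strand): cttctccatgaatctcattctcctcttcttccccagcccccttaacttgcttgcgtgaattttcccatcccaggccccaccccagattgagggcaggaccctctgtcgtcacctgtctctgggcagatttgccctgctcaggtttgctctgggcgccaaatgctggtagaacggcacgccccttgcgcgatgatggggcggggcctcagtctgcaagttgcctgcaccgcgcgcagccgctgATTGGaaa

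The E-box was found upstream of 5 of the 40 members (12.5%), against 6.02% of all 32851 promoters. For every motif, members were counted by gene and the background by promoter entry, so the percentages differ in unit. The 5 sites are given with 12 bases on either side.
Psma4 (chr9:54950707-54950736, plus strand, 140 bases before the start): ttctgcacagtcCACGTGggcagactgagc
Psmb10 (chr8:105938491-105938520, minus strand, 116 bases before): gttcccaacgccCACGTGgtggcacgccca
Psmd9 (chr5:123228127-123228156, plus strand, 51 bases before): tcatctgaaaacCACGTGgtctatctagcc
Psme3 (chr11:101316157-101316186, plus strand, 44 bases before): ggctgcgcagggCACGTGctcatcctcccc
Psme3ip1 (chr8:94601852-94601881, minus strand, 143 bases before): caagatttgtgtCACGTGatctcgcgggtc

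None of these 5 genes passed the test, and their log2 fold changes (arrays labelled Bmal1-/- minus wild type) were -0.04, -0.32, -0.08, -0.27 and 0.15 in that order. The antioxidant response element core was found upstream of 5 members (12.5%, against 10.2% of all promoters), namely Psmb5, Psmb6, Psmc6, Psmd9 and Psmd12. The match began 47 bases before the start in Psmb5 and 9 bases before it in Psmb6. The CCAAT box was found upstream of 15 members (37.5% against 33.8%) and the interferon element upstream of 3 (7.5% against 2.98%), Psmb3, Psmd4 and Psmd9. A match shows only that the letters are there.

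No proteasome gene passed the test for a difference between the genotypes. Of 47 members tested, 0 were higher and 0 lower at a limma adjusted p under 0.05, where 5.66% of all 8033 genes tested were called (3.00% higher, 2.66% lower). The smallest adjusted p was 0.0595, for Psmb8. Psma8, a testis-specific alpha subunit, was the only member below the filter on low values, with 3.8 on wild-type replicate 1 and 0.2 to 0.7 on the other arrays.

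The differences were small and the intervals narrow. The 95% interval of the log2 fold change, unadjusted for the number of genes, lay within -1 to 1 for all 47 members and within -0.5 to 0.5 for 36 of them. It excluded 0 for 16. At an unadjusted p under 0.05 in limma, 12 members (25.5%) were on the higher side and 4 (8.51%) on the lower, against 11.0% and 10.5% of all genes tested (21.5% in either direction). The genotypes did not overlap for 17 members, 11 higher (23.4%) and 6 lower (12.8%), against 13.7% and 12.7% of all genes (26.4% in either direction). Members were brighter than the genes tested as a whole, with a median log2 level of 8.43 against 6.93. The median standard error of their fold changes was 0.09 against 0.13. The median absolute log2 fold change was 0.16 among members and 0.14 among all genes.

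The median log2 fold change was 0.07 over the 17 core subunits tested and 0.14 over the 20 cap genes, 3 of them chaperones, against 0.00 over all genes. Of the core subunits 10 were above 0 and 7 below, and of the cap genes 12 and 8. With probe sets ending in _x_at or _s_at left out, 10 of 17 core subunits were again above 0. When all of a gene's probe sets were averaged, dim untested ones included, the medians were -0.02 and 0.04, so averaging turned the core's direction. With array medians made equal, a scaling that moved the median of all genes to 0.06, they were 0.13 and 0.20. That scaling also brought Psma6 (0.29, adjusted p = 0.0381) and Psmb7 (0.49, adjusted p = 0.0428) past the threshold.

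**Figure D1:**
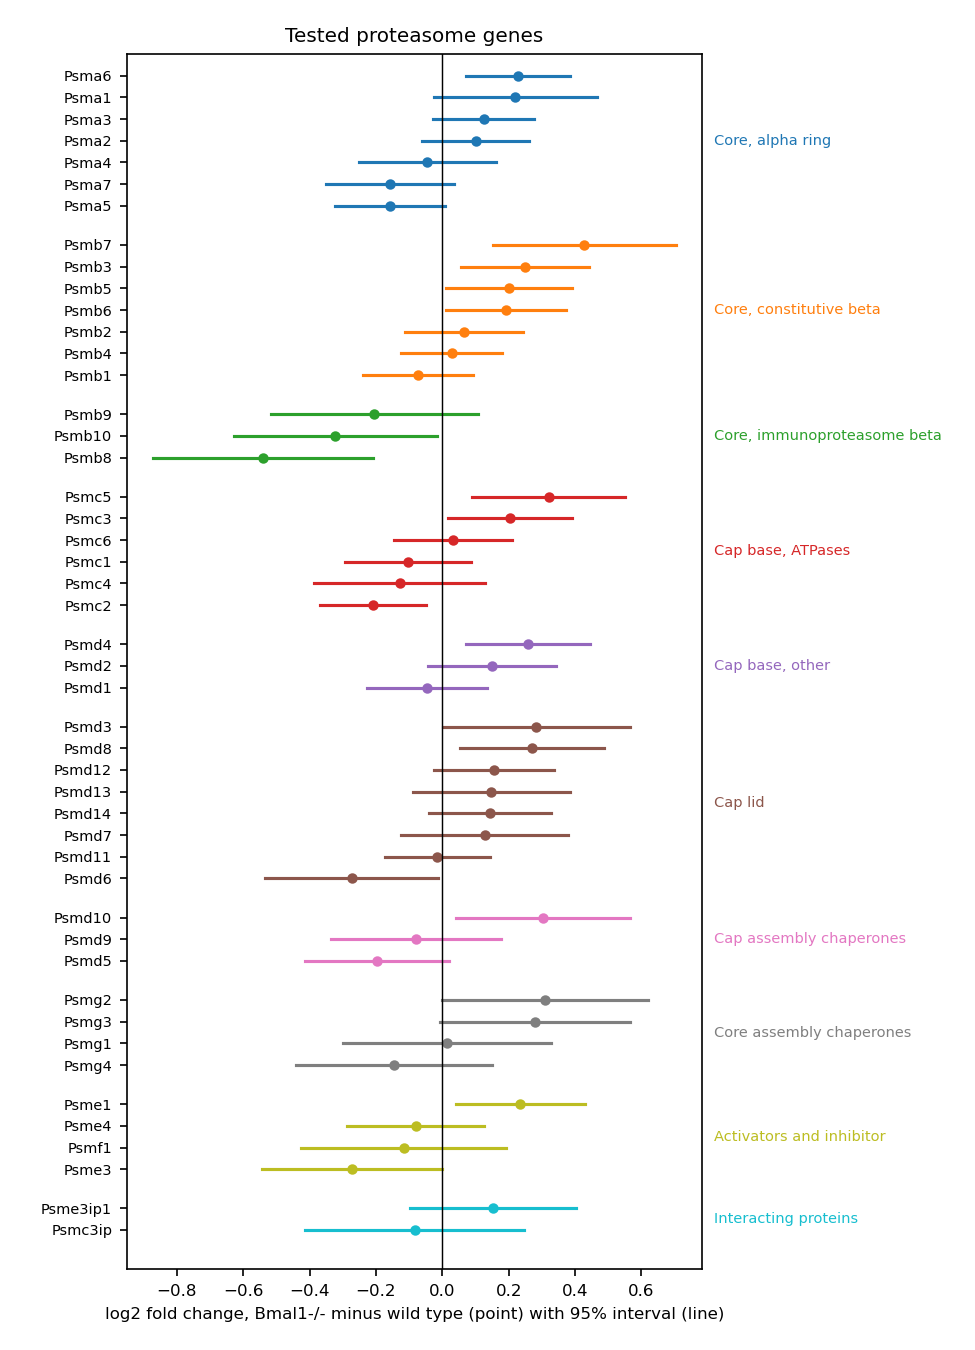
Log2 fold change of the 47 tested members (x axis, arrays labelled Bmal1-/- minus wild type), grouped by role, with the limma 95% interval as a line. The points lie between -0.54 (Psmb8) and 0.43 (Psmb7), and 16 intervals leave out 0.

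In the alpha ring 4 of 7 tested genes were above 0 and the median was 0.10. Psma6 came nearest to the threshold (log2 fold change 0.23, SE 0.07, adjusted p = 0.0879). It read 751, 798.5 and 724.6 in wild type and 926.5, 881.9 and 860.8 on the arrays labelled Bmal1-/-, so the groups stood apart. Its other tested probe sets were at 0.08 and -0.51, with overlap. Its neighbours in the ring went both ways. Psma5 read 541.2, 501.5 and 493.4 in wild type against 461.8, 453.7 and 454.7, again without overlap but on the lower side (-0.16, SE 0.08, adjusted p = 0.258). The second tested probe set of Psma5 was at -0.03, with overlap. Psma3, whose tail helps to close the gate, read 1084 ± 70.4 and 1181 ± 21.4 (0.12, adjusted p = 0.339).

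The other alpha genes overlapped between genotypes. Log2 fold changes were 0.22 for Psma1 (adjusted p = 0.292), 0.10 for Psma2, -0.04 for Psma4 and -0.16 for Psma7. Psma1 was the member that lies within 20 Mb of Arntl in the GRCm38.p6 gene order, with 6 protein-coding genes between them. It read 391.7, 380.2 and 288.3 in wild type and 426.9, 428.3 and 378.8 on the arrays labelled Bmal1-/-. Wild-type replicate 3 was the low array for this gene.

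Among the 7 constitutive beta subunits 6 were above 0, with a median of 0.19, and none passed. The highest upward fold change among the members was that of Psmb7, the trypsin-like catalytic subunit (0.43, SE 0.13, adjusted p = 0.0698). Its probe set read 639.2, 894.4 and 663 in wild type and 1123.7, 851.4 and 982.8 on the arrays labelled Bmal1-/-. Wild-type replicate 2 stood above its group and overlapped the other genotype, and without it the fold change was 0.58 with an adjusted p of 0.00886. Psmb7 passed in 2 of 17 alternative settings, and its adjusted p in them reached 0.218.

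The chymotrypsin-like subunit Psmb5 read 356.6, 348.8 and 391.3 in wild type and 441, 439.3 and 387.6 on the arrays labelled Bmal1-/- (0.20, SE 0.09, adjusted p = 0.210). The groups overlapped through wild-type replicate 3 and Bmal1-/- replicate 6. The caspase-like subunit Psmb6 read 310.7, 322 and 287.1 against 353, 347.1 and 357.3, with no overlap (0.19, SE 0.08, adjusted p = 0.204). The structural subunit Psmb3 did not overlap either, at 269 ± 19.9 and 322 ± 11.8 (0.25, SE 0.09, adjusted p = 0.127). The second tested probe set of Psmb3 was at 0.09, with overlap. The remaining structural subunits Psmb2 (0.07), Psmb4 (0.03) and Psmb1 (-0.07) lay close to 0, and Psmb4 read 1458 ± 104 and 1485 ± 40.4.

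All 3 immunoproteasome subunits on the array lay below 0, with a median of -0.32, and none passed. Psmb8, which takes the place of Psmb5, had the lowest log2 fold change among the members (-0.54, SE 0.15, 95% interval -0.87 to -0.21, adjusted p = 0.0595). Its probe set read 87.3, 118.6 and 124.7 in wild type and 70.5, 83.1 and 58.1 on the arrays labelled Bmal1-/-. The genotypes did not overlap, and wild-type replicate 1 and Bmal1-/- replicate 5 were the nearest arrays. Without wild-type replicate 1 the fold change was -0.68 and passed (adjusted p = 0.0353). Psmb8 passed in only 1 of 17 alternative settings, and its adjusted p in them reached 0.196.

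Psmb10, which takes the place of Psmb7, read 156, 107.3 and 133.7 in wild type and 115.9, 101.3 and 88.9 on the arrays labelled Bmal1-/- (-0.32, SE 0.14, adjusted p = 0.209). Psmb9, which takes the place of Psmb6, read 78.9, 85.4 and 108.1 against 68.9, 90.8 and 70.1 (-0.20, SE 0.14, adjusted p = 0.454). Both overlapped between genotypes. Standard errors of the immunoproteasome genes were all larger than those of the constitutive beta subunits.

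**Figure D2:**
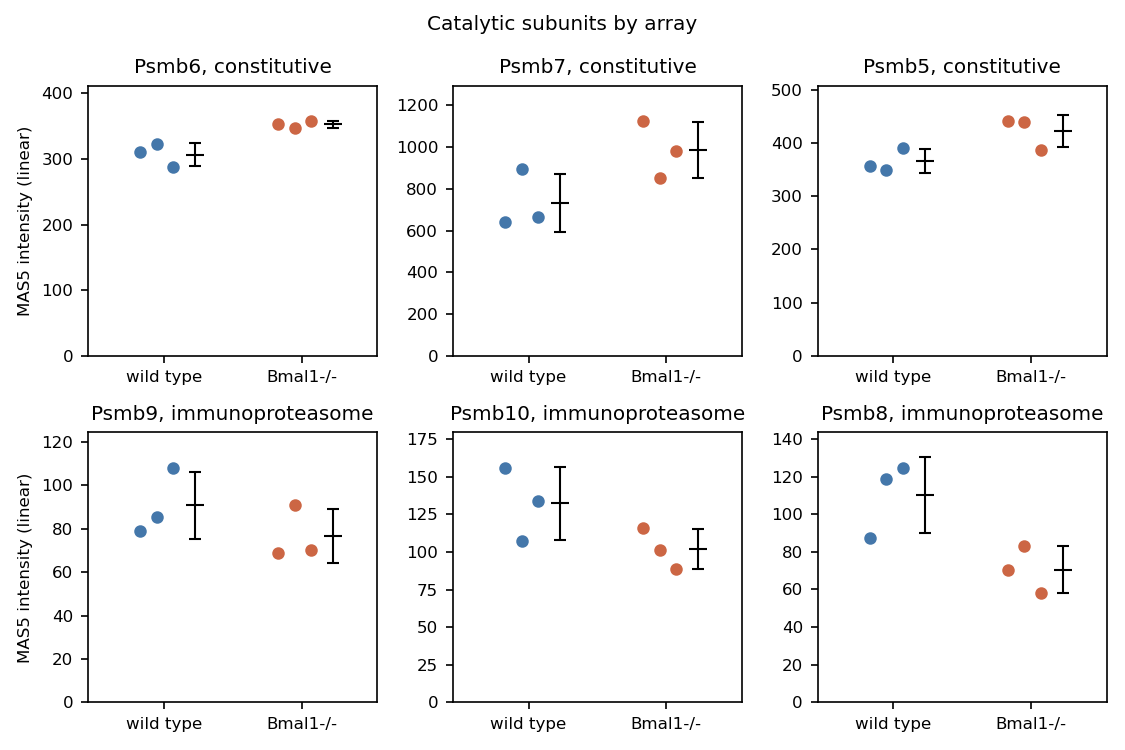
MAS5 intensity (linear, y axis from 0) of the constitutive catalytic subunits (top) and the immunoproteasome subunits that replace them (bottom), per array, with mean and SD beside the points. Means were higher on the arrays labelled Bmal1-/- in the top panels and lower in the bottom panels, and groups were apart for Psmb6 and Psmb8.

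Within each array, the log2 level of the immunoproteasome subunit minus that of the subunit it replaces, each centred on its 6-array mean, was compared by description only, since the pairs were chosen with these values known. For Psmb8 minus Psmb5 it was 0.13, 0.54 and 0.44 in wild type and -0.42, -0.22 and -0.47 on the arrays labelled Bmal1-/-. For Psmb10 minus Psmb7 it was 0.78, -0.18 and 0.53 against -0.40, -0.18 and -0.54, so wild-type replicate 2 and Bmal1-/- replicate 5 were nearly equal. For Psmb9 minus Psmb6 it was 0.02, 0.06 and 0.51 against -0.32, 0.04 and -0.31, with overlap. The mean differences between genotypes were -0.74, -0.75 and -0.40 on the log2 scale.

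Of the 7 genes that carry immunoproteasome peptides onto MHC class I, limma called 1 lower and 0 higher. Of all genes tested, 2.66% were called lower and 3.00% higher. The gene called was B2m, the light chain of those molecules, and the list's median was -0.01. B2m read 2824.8, 2533.8 and 3047.7 in wild type and 1984.2, 2112.9 and 1853.9 on the arrays labelled Bmal1-/- (-0.49, SE 0.08, adjusted p = 0.00414). Its other probe set fell likewise (-0.52, adjusted p = 0.0041), and the call ended when the variance model had no intensity trend (adjusted p = 0.0517).

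Tap1 and Tap2, subunits of the peptide transporter, lie beside Psmb8 and Psmb9 on chromosome 17 in the order Psmb9, Tap1, Psmb8, Tap2. Tap2 read 116.1, 109.3 and 142.4 in wild type and 84.3, 83.2 and 87.6 on the arrays labelled Bmal1-/-, without overlap (-0.45, SE 0.12, adjusted p = 0.0511). It passed in 6 of 17 alternative settings, among which its adjusted p ran from 0.0355 to 0.171 (0.0378 without wild-type replicate 2). Tap1, between the immunoproteasome genes, read 25.6 ± 0.90 and 25.3 ± 3.81 (-0.01, adjusted p = 0.974). Tapbp (-0.12), Calr, Pdia3 (0.07) and Erap1 (0.16) did not pass.

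Markers of immune cells, which hold immunoproteasomes, lay on the same side of 0. For the counts of calls that follow, the share of all genes tested that limma called lower was 2.66%, and higher 3.00%. Of 7 macrophage markers 6 were tested and all 6 were below 0. Only C1qa, a subunit of complement C1q, was called, and it fell from 127 ± 7.26 to 86.2 ± 5.59 (-0.48, SE 0.11, adjusted p = 0.028). The C1qa call ended when any array was left out (adjusted p 0.0504 to 0.0898) and with no filter on low values (0.0556). The summed intensity of the 7 markers was 499 to 528.2 in wild type and 346.5 to 406.4 on the arrays labelled Bmal1-/-. Csf1r, the macrophage growth factor receptor, read 94.4 ± 10.6 and 65.7 ± 3.64 (-0.43, adjusted p = 0.0639), and its 2 other probe sets were at -0.07 and -0.17. Of 8 lymphocyte markers 6 had a probe set, and the T cell genes Cd3e, Cd3g and Cd2 were below the filter at 10.2 or less on every array. The 6 lymphocyte markers summed to 89.3 to 103.6 in wild type and 66.2 to 70.8 in the other group, and among them the B cell gene Cd79b read 43.7 ± 5.41 against 26.4 ± 1.80 (adjusted p = 0.0666). Endocrine markers also lay mostly on that side, with 6 of 7 below 0, 1 above and a median of -0.24. They summed to 61038.7 to 69434.5 against 55220.5 to 58054.4. Limma called 2 of the 7 lower, Gh (-0.27, adjusted p = 0.0217) and Cga (-0.31, adjusted p = 0.019). At an unadjusted p under 0.05 in limma 4 of the 7 were lower, where 10.5% of all genes were. Other lists went both ways. Alas2, the only erythroid gene tested, lay below 0 with overlap (-0.26, adjusted p = 0.487). The myelin gene Mbp rose (0.52, adjusted p = 0.021) and was the only gene tested of its glia and myelin list. Below the filter, means in that list were lower for Gfap and Mag and higher for Nkx2-1, all with overlap. The folliculostellate gene S100b, also below the filter, read 11.1 to 13.8 in wild type and 0.4 to 7 in the other group. Tested genes of the endothelial and folliculostellate lists had medians of 0.08 and 0.05, and the lists' sums overlapped. Limma called 0 genes in these lists, likewise 0 at an unadjusted p under 0.05. The part of these cells in the immunoproteasome values was not tested.

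**Figure D3:**
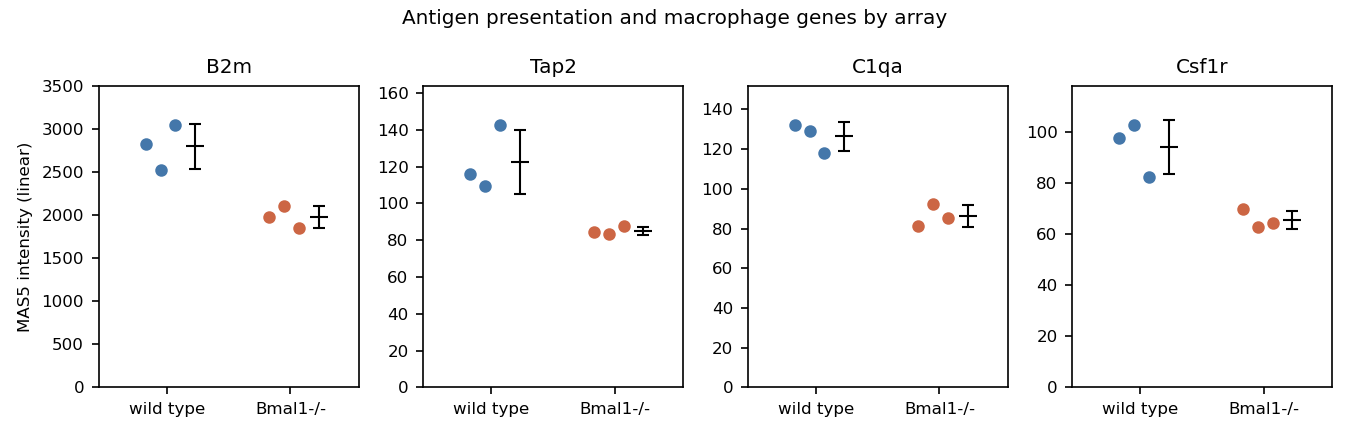
MAS5 intensity (linear, y axis from 0) per array of B2m and Tap2, which act in antigen presentation, and of the macrophage markers C1qa and Csf1r, with mean and SD beside the points. In all 4 panels every array labelled Bmal1-/- lies below every wild-type array.

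The 6 ATPases of the cap base, which unfold the substrate, split evenly, 3 above 0 and 3 below, with a median of -0.03. Psmc5 was highest (0.32, SE 0.11, adjusted p = 0.101), at 349.6, 437.9 and 368.9 in wild type and 491.7, 426.8 and 537.3 on the arrays labelled Bmal1-/-. Wild-type replicate 2 was again the high array of its group, and without it Psmc5 passed (0.41, adjusted p = 0.0381). Psmc5 passed in only 1 of 17 alternative settings, and its adjusted p in them reached 0.2995. Psmc2 was lowest and did not overlap, at 1037.5, 927.4 and 925 against 857, 801.7 and 833.2 (-0.21, SE 0.07, adjusted p = 0.124). Its second probe set was at 0.02, with overlap. Psmc3 read 284.1, 292.7 and 263.5 against 319.6, 339.8 and 315.4, without overlap on the higher side (0.20, adjusted p = 0.192), and Psmc1 read 234 ± 7.55 and 217 ± 3.50, without overlap on the lower (-0.10, adjusted p = 0.547). Psmc4 (-0.13) and Psmc6 (0.03) overlapped. Genes of one obligate ring thus had fold changes on both sides of 0.

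Of the base subunits that are no ATPases, Psmd4, a ubiquitin receptor, came nearest to the threshold (0.26, SE 0.09, adjusted p = 0.101). It read 353, 348.9 and 310.7 in wild type and 414.8, 385.8 and 418.7 on the arrays labelled Bmal1-/-, without overlap, and its second tested probe set was at 0.23. The scaffold subunits Psmd2 (0.15) and Psmd1 (-0.05) overlapped.

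In the lid, which removes ubiquitin from the substrate, 6 of 8 genes were above 0 with a median of 0.15. Psmd8 read 324.5, 299.5 and 308.5 in wild type and 328.6, 384.6 and 426.2 on the arrays labelled Bmal1-/- (0.27, SE 0.10, adjusted p = 0.141). Psmd12 was tight within each genotype, at 248 ± 2.10 and 278 ± 9.17 (0.16, SE 0.08, adjusted p = 0.312). Psmd14, the deubiquitinase of the lid, read 484 ± 40.3 and 536 ± 28.9 with overlap (0.14, adjusted p = 0.360). Log2 fold changes were 0.28 for Psmd3 (adjusted p = 0.233), 0.15 for Psmd13, 0.13 for Psmd7 and -0.02 for Psmd11. Psmd6 lay lowest (-0.27, SE 0.12, adjusted p = 0.215), with wild-type replicate 1 at 523.6 above all other arrays.

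Assembly chaperones, which help to build the complex and are not part of the finished form, did not pass either. Psmd10 (gankyrin), a chaperone of the cap base, read 82.7, 91 and 86.6 in wild type and 118.6, 120.2 and 95.3 on the arrays labelled Bmal1-/-, without overlap (0.30, SE 0.12, adjusted p = 0.167). Psmd5, another, did not overlap on the lower side, at 154 ± 4.04 and 132 ± 8.01 (-0.20, adjusted p = 0.289), and Psmd9 was at -0.08. Among the chaperones of the core, Psmg2 was at 0.31 (adjusted p = 0.238) and Psmg3 at 0.28 (adjusted p = 0.247), Psmg1 at 0.01 and Psmg4 at -0.14.

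Alternative caps and the inhibitor also stayed short of the threshold. Psme1, an interferon-induced subunit of the PA28 activator, read 408.2, 454.5 and 484 in wild type and 487.2, 563.3 and 542.8 on the arrays labelled Bmal1-/-, just without overlap (0.24, SE 0.09, adjusted p = 0.151). Its direction was opposite to that of Psmb8, Psmb9 and Psmb10, which interferon also induces. Psme3, which forms the nuclear activator, read 73, 67.6 and 80.4 against 62.8, 55.4 and 56.4 (-0.27, SE 0.13, adjusted p = 0.238). Psme4, a large nuclear activator, was at -0.08 and the inhibitor Psmf1 at -0.12. The interacting proteins Psme3ip1, which binds the nuclear activator, and Psmc3ip, a meiotic recombination factor, were at 0.15 and -0.08.

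Role groups were also followed array by array, as the mean over genes of the deviation from each gene's own 6-array mean on the log2 scale. The constitutive beta ring stood at -0.10, -0.02 and -0.11 in wild type and at 0.13, 0.06 and 0.05 on the arrays labelled Bmal1-/-. The lid stood at -0.03, -0.05 and -0.08 against 0.05, 0.04 and 0.06. The immunoproteasome subunits stood at 0.11, 0.11 and 0.32 against -0.16, -0.04 and -0.34. In these groups the genotypes were apart, and narrowly so in the base subunits that are no ATPases (-0.03, -0.03 and -0.11 against 0.15, -0.02 and 0.06). They were apart over all genes tested as well, at 0.0009, 0.0062 and 0.0044 against -0.0072, -0.0034 and -0.0008. In the alpha ring they were not, at 0.01, 0.02 and -0.09 against 0.09, 0.01 and -0.03, nor in the ATPase ring, where all arrays lay within -0.03 to 0.04. Bmal1-/- replicate 6 was the lowest of its group for the core chaperones (-0.12, against 0.16 and 0.13).

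**Figure D4:**
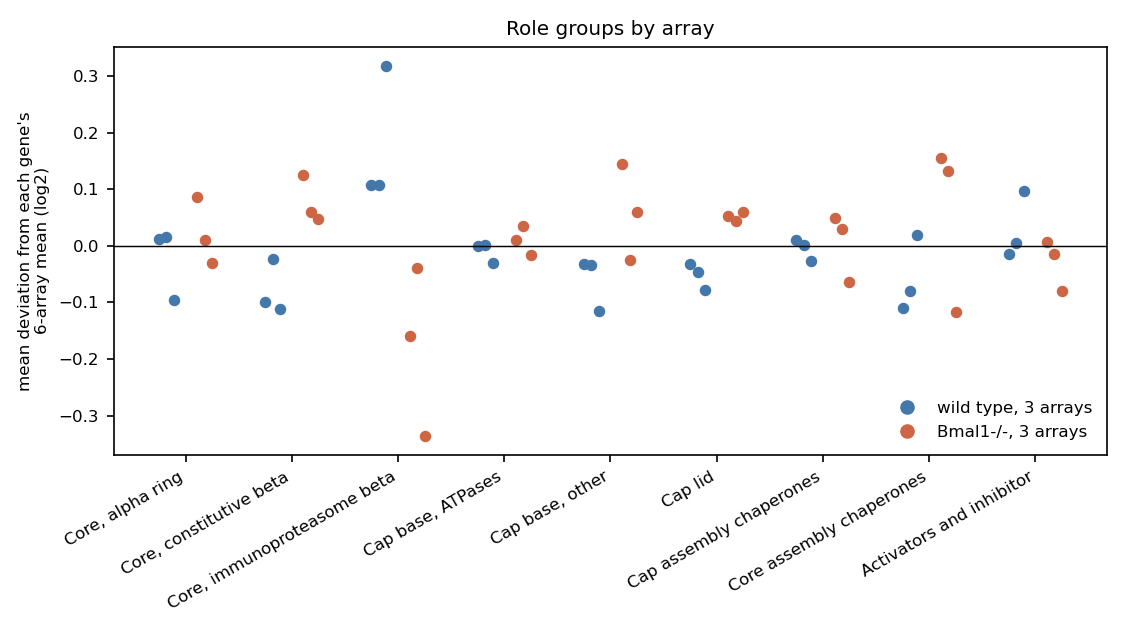
Mean deviation of each role group on each array (y axis, log2 scale, each gene centred on its 6-array mean); blue points are wild type and orange points the arrays labelled Bmal1-/-. The groups are apart for the constitutive beta ring, the immunoproteasome subunits and the lid, and overlap for the alpha ring and the ATPases.

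Probe sets of the same gene did not always go the same way. Of the 85 probe sets 70 were tested and 0 were called, and 17 members had more than 1 tested. In 9 of those the tested probe sets differed in sign. Psmc6 differed most in level of evidence: its brightest probe set was at 0.03, while the dimmer one was at -0.42 (SE 0.12, adjusted p = 0.0686), reading 143.8, 110.2 and 143.7 in wild type and 99, 94.1 and 91 on the arrays labelled Bmal1-/-. The genotypes did not overlap on that dimmer probe set.

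Other members differed in sign as follows. The second probe set of Psma6 was at 0.08 and its dimmest tested one at -0.51 (SE 0.30), the latter with 6.4 on Bmal1-/- replicate 5 against 29.5 to 54.5 elsewhere. The second probe set of Psmc2 was at 0.02, that of Psmd6 at 0.01, that of Psme3 at 0.07 and that of Psma7 at 0.12, each opposite in sign to the brightest. The second probe set of Psmb4 was at -0.31 (SE 0.20), the other 3 of Psmd11 at 0.13, 0.25 and -0.17, and the other 2 of Psme4 at 0.19 and -0.11. Psmb7, Psmb8, Psmb9, Psmb10, Psmb5 and Psmb6 had a single probe set each. Probe sets ending in _x_at or _s_at can also detect other transcripts. The brightest probe sets of Psma6 and Psmc2 end in _x_at, and that of Psmd11 in _s_at.

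**Figure D5:**
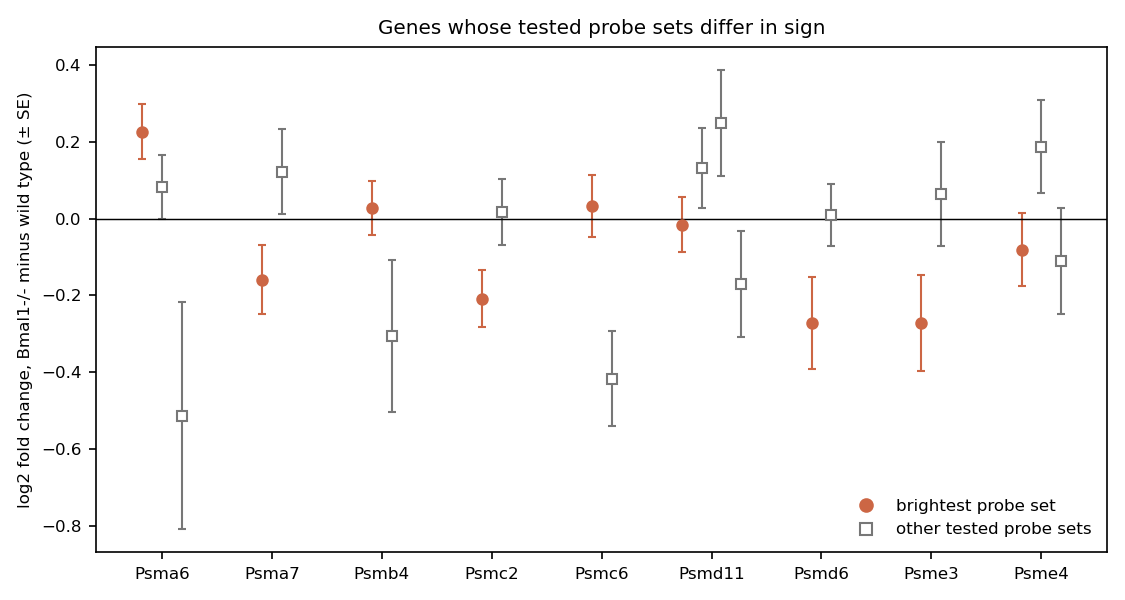
Log2 fold change (y axis, arrays labelled Bmal1-/- minus wild type, ± SE) of each tested probe set of the 9 members whose probe sets differ in sign, with the brightest probe set filled. Psmc6 is at 0.03 and -0.42, and Psma6 at 0.23, 0.08 and -0.51.

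Genes that work with the proteasome were counted list by list. Of all genes tested limma called 5.66%, and 21.5% had an unadjusted p under 0.05. Of 14 tested factors that bind or assist it, 0 were called by limma, 0 at an unadjusted p under 0.05, with a median of 0.06. The nearest were Ubqln4, a shuttle for ubiquitin-tagged proteins (0.31, adjusted p = 0.240), and Zfand5, a proteasome activator (0.16, adjusted p = 0.289). The COP9 signalosome, a complex built like the lid, had 0 of 9 called in limma and 0 at an unadjusted p under 0.05, with a median of 0.01. The nearest there were Cops4 (0.20, adjusted p = 0.244) and Cops5 (0.13, adjusted p = 0.464). Of 8 genes of the p97 segregase, which extracts tagged proteins from membranes and complexes, 0 were called and 2 were higher at an unadjusted p under 0.05 in limma, where 11.0% of all genes were, with a median of 0.10. The 2 were Ubxn1 (0.31, adjusted p = 0.101) and Vcp, the ATPase itself (0.20, adjusted p = 0.232). With equal array medians 1 of the 8 genes was called higher.

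Ubiquitin-conjugating E2 enzymes had 2 of 23 called, both higher, where 3.00% of all genes tested were called higher and 5.66% in either direction. Ube2e3, at 660, 632.5 and 653.8 in wild type, rose to 787.1, 880 and 827.5 (adjusted p = 0.0181 for a log2 fold change of 0.35, SE 0.07). Ube2e1, at 678.9, 592.5 and 587.5, rose to 856.4, 838.3 and 728.5 (adjusted p = 0.0303 for 0.37, SE 0.09). Both encode closely related E2 enzymes. The list's median was -0.01. Both calls ended when the variance model had no intensity trend (adjusted p = 0.0909 and 0.112). That of Ube2e3 also ended with its probe sets averaged (0.156), and that of Ube2e1 with no filter on low values (0.0716). Leaving out wild-type replicate 3, Bmal1-/- replicate 5 or Bmal1-/- replicate 6 ended that of Ube2e3 (highest adjusted p = 0.0874), and that of Ube2e1 ended when wild-type replicate 2, wild-type replicate 3, Bmal1-/- replicate 4 or Bmal1-/- replicate 5 was dropped (highest 0.112).

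Of 10 tested regulators of proteasome genes 1 was called, on the lower side, where 2.66% of all genes were called lower, and the list's median was -0.02. Nfe2l2 (NRF2), which acts through the same response elements as NRF1, fell from 387 ± 32.3 to 299 ± 4.06 (-0.36, SE 0.09, adjusted p = 0.0355). The call ended with any array but wild-type replicate 2 left out (highest adjusted p = 0.131), with equal array medians (0.0628), with dim probe sets kept in (0.0636) and when the variance model had no trend (0.0999). Nfe2l1 itself read 253.7, 300.9 and 218 in wild type and 309.6, 277.3 and 347.6 on the arrays labelled Bmal1-/- (0.27, SE 0.12, adjusted p = 0.231), with overlap. The ubiquitin and E1 genes listed were not analysed here.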

How the data were processed

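Linear intensities, 1 per probe set and array, were used as the authors deposited them. They come from MAS5, per the submitters' processing notes, with version, target value and detection calls not given in the sources used here. The mean after trimming 2% from each end was 100.0 on every array.

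Of 22690 probe sets, 64 controls were left out. The platform annotation names 1 gene for 20380, several for 691 and none for 1555. Values were taken as log2(intensity + 16), which understates changes of dim genes, and the brightest 60% of probe sets (13576, mean equivalent to 17.3 or more) were tested with limma 3.58.1 in R 4.3.3 (lmFit, eBayes with an intensity trend, two-sided). Benjamini-Hochberg adjustment ran over all of them, with a threshold of 0.05. For each gene the brightest tested probe set by mean log2 level was used.

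Members and lists were chosen with earlier results of these data known. Named genes are the members past the threshold, or the 2 with the smallest p in each role, members whose probe sets disagree, and up to 4 called genes (or the 2 nearest) per pathway list. Other members, Tap1, Tap2, Nfe2l1, Csf1r, the other marker genes and the remaining peptide loading genes were named after their values were seen. Procedures were checked on simulated data. Alternatives were pseudocounts, scaling, filters, variance models, array weights, probe set choice and leaving out each array. The number of arrays limits the precision.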

Additional observations from a re-analysis of the deposited data

How the results depend on the processing

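No paired analysis was possible because the genotypes share no replicate numbers. Of the 47 members 36 kept their direction in every alternative they were run in, 16 for Psmc3ip and 17 for the others, and 4 members (Psma6, Psmb7, Psmb8 and Psmc5) passed in at least 1. The count of members higher on the arrays labelled Bmal1-/- was 0 except with equal array medians, where it was 2, and ranged from 0 to 2 when 1 array was left out (2 without wild-type replicate 2). The count lower ranged from 0 to 1 (1 without wild-type replicate 1) and was 0 otherwise. With equal array medians the core and cap medians were 0.13 and 0.20, and when a gene's probe sets were averaged -0.018 and 0.044. Leaving out 1 array gave 0.033 to 0.083 for the core and 0.072 to 0.16 for the cap. Probe sets called on the whole array, 752, were 330 with no filter on low values, 407 without the intensity trend, and 314 to 950 with 1 array left out, with fewer arrays in each such fit. Equal array medians called 897, of which 622 were higher, against 374 of 752.

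Some members turned sign, among them Psma6, Psma1 and Psmc2 (0.23, 0.22 and -0.21 as reported) with the choice or averaging of probe sets. With equal array medians Psma4 was 0.015, Psmd1 0.014 and Psmd11 0.045; after quantile normalization Psmc6 was -0.0015. With all probe sets averaged, dim untested ones included, Psma1 was -0.067, Psma6 -0.021, Psmb4 -0.14 and Psmc6 -0.20. Of the 3 probe sets of Psma1 only 1 was tested in the main fit. Without _x_at and _s_at probe sets Psmc2 was 0.019 and Psmd11 0.13. With 1 array left out, Psmg1 ranged from -0.11 to 0.14, Psma4 from -0.13 to 0.048, Psmb4 from -0.0025 to 0.086, Psmd11 from -0.064 to 0.022, Psmc4 from -0.25 to 0.012 and Psmf1 from -0.24 to 0.0021. The cause of these turns was not tested. Each array is a pool, so p-values measure the spread between pools.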
